A study of Bombyx mori with 6 samples.

Results

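The unfolded protein response genes described here are 4 of the 16877 gene models in the deposited silkworm count table: the stress sensors IRE1 (KWMTBOMO10231) and eIF2-alpha kinase (KWMTBOMO04082), the transcription factor ATFC (KWMTBOMO06713) and tribbles homolog 2 (KWMTBOMO01751). They were chosen by gene identifier, from the product names in the table. All 4 passed the filter on low counts. They were compared between 3 RNA sequencing libraries labelled siUFBP1 and 3 labelled siNC, all from Bombyx mori. The siUFBP1 libraries are labelled for a small interfering RNA against UFBP1, a protein of the endoplasmic reticulum (ER) membrane that takes part in UFMylation, the joining of the ubiquitin-like protein UFM1 to its targets. The siNC libraries are labelled for a negative control small interfering RNA.

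Both groups share the strain P50, the fat body as labelled tissue and, per the protocols, infection with the baculovirus BmNPV. The protocols describe larvae on day 3 of instar 5, each given 2.5 µg of small interfering RNA and, 12 h later, 5 µL of virus suspension. They name harvests at 24, 48 and 72 h but no time for any library. The labels also name BmN, a silkworm ovary-derived cell line, and the protocols describe its transfection, so that the labels alone do not settle whether a library came from larvae or from cells. No separate animals or cultures are named, and p-values reflect only how far these libraries vary, which may be technical.

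The unfolded protein response is the signalling system by which a cell adjusts its ER to the load of unfolded protein. IRE1 and the ER-resident eIF2-alpha kinase, called PEK in Drosophila and PERK in mammals, span the ER membrane and sense that load on its inner side. IRE1 then splices the mRNA of the transcription factor XBP1, and the kinase phosphorylates the initiation factor eIF2, which lowers translation in general while favouring factors such as ATF4. The fat body, the insect counterpart of liver and adipose tissue, secretes large amounts of protein into the hemolymph through the ER. Counts per gene measure neither the splicing of XBP1 nor the phosphorylation of eIF2.

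The table's domain annotation places the 4 products in their roles. IRE1 carries a protein kinase domain, a ribonuclease domain and PQQ repeats, and eIF2-alpha kinase a protein kinase domain and PQQ-type repeats. ATFC carries a bZIP domain. Tribbles homolog 2 carries a protein kinase domain. The Swiss-Prot match of eIF2-alpha kinase is the Drosophila ER kinase and that of ATFC is a silkworm entry, while those of IRE1 and tribbles homolog 2 are the human IRE2 and the bovine tribbles homolog 2.

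Total counts were 25570725 to 53204480 in siUFBP1 libraries and 27100565 to 31760120 in siNC libraries. The targeted transcript did not check the labels. UFBP1 (KWMTBOMO13599) averaged 33.9 ± 1.05 TMM-normalized CPM in siUFBP1 libraries and 34.0 ± 2.71 in siNC libraries (SD, n = 3 each). TMM-normalized CPM are read counts relative to the library total, scaled to library size and to library composition. Its log2 fold change was 0.0043 ± 0.06 (SE, adjusted p = 0.951, edgeR), but it was called higher with library size alone (0.80, adjusted p = 1.55e-10, edgeR) and lower with upper quartile scaling (-0.14, adjusted p = 0.0406, edgeR). Each direction below is therefore that of the libraries labelled siUFBP1 over the libraries labelled siNC.

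The libraries of the 2 labels differ in make-up. Fat body markers, 44 of 74 of which were tested, took 47.8% to 49.2% of counts in siUFBP1 libraries and 74.3% to 74.8% in siNC libraries. Silk gland markers, of which 6 of 9 were tested, took 10.1% to 11.8% in siUFBP1 libraries and 0.050% to 0.0530% in siNC libraries. Testis and sperm markers, 81 of 114 tested, took 0.103% to 0.113% in siUFBP1 libraries and 0.00625% to 0.00697% in siNC libraries, with 4 of the 114 at 0 in all siUFBP1 libraries and 70 at 0 in all siNC libraries. Muscle, cuticle and midgut shares were 3.04, 5.07 and 8.07 times as large in siUFBP1 libraries as in siNC libraries, hemocyte shares 1.26 times and ovary and germ line shares 1.44 times. Of 35 tested hemocyte markers, however, 21 were called lower and 9 higher with TMM (median log2 fold change -0.45). Of 13 tested ovary and germ line markers 4 were lower and 1 higher (median -0.31). Shares follow library size alone, a scale on which the median tested gene rose by 0.92 in log2 units. Hemocyte and ovary shares rose by less, so their rise by itself shows no enrichment. No gene model carried a baculovirus product, and viral transcripts were not analysed here. These shifts stand beside every result below, and their part in those results was not tested. In bulk libraries, fewer cells of a type and less RNA per cell cannot be told apart.

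Every fold change depends on whether library composition is scaled out. TMM factors were 1.28 to 1.38 in siUFBP1 libraries and 0.746 to 0.767 in siNC libraries. With TMM the median log2 fold change of the 10729 tested genes was 0.11, and the middle 50% of genes lay between -0.36 and 0.86. That median moved up by 0.80 with library size alone, and with upper quartile scaling it dropped by 0.14. Of the genes called in either direction, 58.5% were higher with TMM, 48.9% with upper quartile scaling and 95% with library size alone.

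In the edgeR test with TMM scaling, 3 of the 4 genes were lower in siUFBP1 libraries and 1 was higher, but by library size alone 3 were higher and none was lower. The fitted ratio of siUFBP1 over siNC was 0.494 for IRE1, 0.662 for ATFC, 0.810 for eIF2-alpha kinase and 1.22 for tribbles homolog 2. Among all tested genes, 28.4% were called lower, 40.0% higher and 68.4% in either direction, so that a call by itself is common in these libraries. None of the 4 genes had overlapping TMM-normalized CPM between the groups, which holds for 71.2% of all tested genes. With upper quartile scaling 3 were lower and none was higher.

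**Figure D1:**
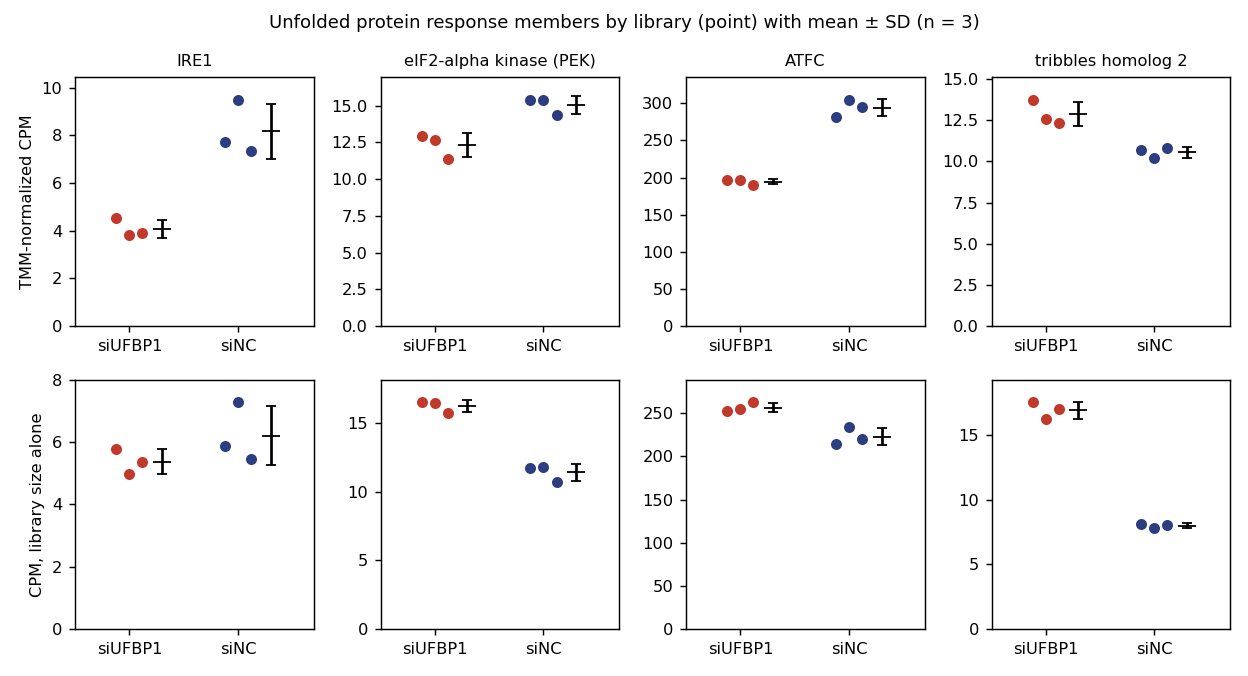
Normalized counts (CPM) of the 4 genes in each library, scaled with TMM (upper row) and by library size alone (lower row). Each point is a library, and the bar is the mean ± SD of 3 libraries. In the upper row IRE1, eIF2-alpha kinase and ATFC lie lower in siUFBP1 libraries, but in the lower row ATFC and eIF2-alpha kinase lie higher there and the IRE1 groups overlap. Tribbles homolog 2 lies higher in siUFBP1 libraries in both rows.

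IRE1, the sensor kinase and endoribonuclease, was the least abundant of the 4 and had the largest decrease with TMM. It was counted 154, 127 and 286 times in siUFBP1 libraries and 165, 231 and 148 times in siNC libraries. TMM-normalized CPM were 4.53, 3.84 and 3.89 in siUFBP1 libraries and 7.70, 9.49 and 7.32 in siNC libraries. The highest siUFBP1 library lay well below the lowest siNC library, and siNC replicate 2 stood above the other siNC libraries. Its log2 fold change was -1.02 ± 0.12 (SE, adjusted p = 5.63e-07, edgeR), or -1.13 relative to the median of all tested genes. Only 4.96% of tested genes had a lower value. By library size alone the value was -0.21 and did not pass (adjusted p = 0.125, edgeR). On that scale the libraries stood at 5.79, 4.97 and 5.38 CPM for siUFBP1 and 5.87, 7.27 and 5.46 CPM for siNC, and the groups overlapped.

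IRE1 was also the gene with the largest spread between replicates. Its TMM-normalized CPM had a coefficient of variation of 9.41% in siUFBP1 libraries and 14.2% in siNC libraries. Counting error alone would give 7.72% and 7.56% at these depths. The corresponding values for ATFC were 2.05% in siUFBP1 libraries and 3.90% in siNC libraries, against 1.12% and 1.25% from counting. ATFC thus has the lowest counting error of the 4, and IRE1 the highest.

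The eIF2-alpha kinase (PEK), the sensor that phosphorylates eIF2, had the smallest decrease. Its TMM-normalized CPM were 12.9, 12.7 and 11.4 in siUFBP1 libraries and 15.4, 15.4 and 14.3 in siNC libraries. The groups did not overlap, but the lowest siNC library was close to the highest siUFBP1 library. Its log2 fold change was -0.30 ± 0.07 (SE, adjusted p = 0.00153, edgeR) with TMM and turned to 0.50 with library size alone (adjusted p = 6.41e-06, edgeR). Relative to the median of all tested genes it was -0.42 with TMM, and 27.8% of tested genes had a lower value. By library size alone it stood at 16.5, 16.4 and 15.7 CPM in siUFBP1 libraries and 11.7, 11.8 and 10.7 CPM in siNC libraries.

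ATFC is the silkworm's activating transcription factor of chaperone, a bZIP protein named for its activation of ER chaperone genes. Its TMM-normalized CPM were 197, 197 and 190 in siUFBP1 libraries and 282, 305 and 294 in siNC libraries. All siUFBP1 libraries lay within a narrow band well below every siNC library. The log2 fold change was -0.59 ± 0.03 (SE, adjusted p = 1.98e-11, edgeR) with TMM and turned to 0.20 with library size alone (adjusted p = 0.000394, edgeR). Relative to the median of all tested genes it was -0.71, and 15.4% of tested genes had a lower value. By library size alone ATFC stood at 252, 255 and 263 CPM in siUFBP1 libraries and at 215, 234 and 220 CPM in siNC libraries. On this scale every siUFBP1 library lay above every siNC library.

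Tribbles homolog 2 belongs to a family of pseudokinases that recruit ubiquitin ligases and kinases to other proteins, and in mammals its relative TRIB3 is a target of ATF4. It was the 1 gene of the 4 higher in siUFBP1 libraries with TMM. Its TMM-normalized CPM were 13.7, 12.6 and 12.3 in siUFBP1 libraries and 10.7, 10.2 and 10.8 in siNC libraries. The log2 fold change was 0.28 ± 0.08 (SE, adjusted p = 0.00347, edgeR), and 1.08 with library size alone (adjusted p = 2.31e-11, edgeR). With upper quartile scaling it was 0.14 and did not pass (adjusted p = 0.113, edgeR). Relative to the median of all tested genes it was 0.17, and 57.8% of tested genes had a lower value, so that the gene lay near the middle of all tested genes.

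**Figure D2:**
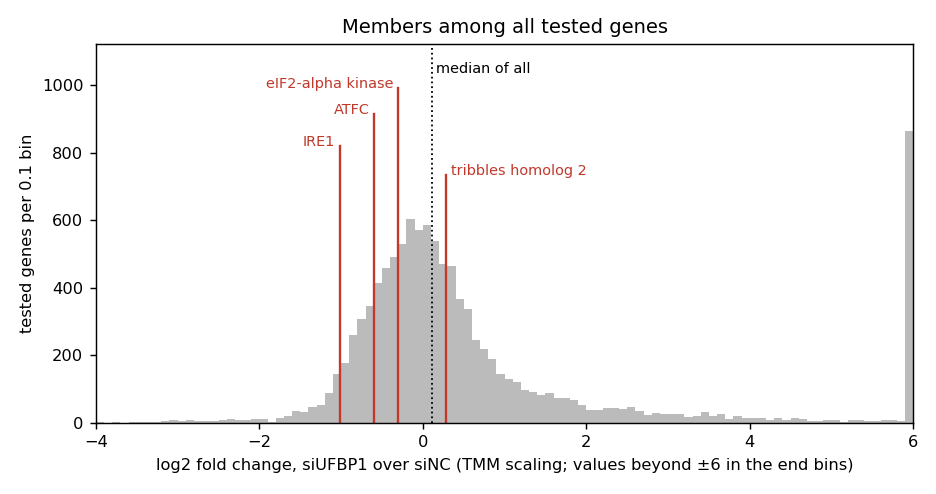
Distribution of log2 fold changes, siUFBP1 over siNC with TMM scaling, of the 10729 tested genes in bins of 0.1 (grey bars), with the 4 genes (red lines) and the median of all, 0.11 (dotted line). IRE1 at -1.02 lies in the lower tail, ATFC at -0.59 and eIF2-alpha kinase at -0.30 lie below the median, and tribbles homolog 2 at 0.28 lies just above it. The signs of ATFC and eIF2-alpha kinase turn with library size alone.

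A count scaling shifts the log2 fold changes of all genes nearly alike, so values relative to the median of all genes are nearly the same under TMM, upper quartile scaling and library size alone by construction. In the limma-trend fit to log2(FPKM + 1), which also changes the unit and the genes tested, these relative values were -0.82 for IRE1, -0.50 for ATFC and -0.28 for eIF2-alpha kinase. The authors' deposited table gives ATFC a log2 fold change of -0.60, IRE1 -1.02, eIF2-alpha kinase -0.30 and tribbles homolog 2 0.28. Of these, the authors' deposited table calls IRE1 down and leaves the other 3 as normal. The authors' adjusted p-values were 1.16e-11 for IRE1, 2.84e-60 for ATFC, 0.00293 for eIF2-alpha kinase and 0.0114 for tribbles homolog 2 (DESeq2). A call of normal there thus does not stand for a high adjusted p-value. The 3 genes left as normal had smaller fold changes than IRE1.

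**Figure D3:**
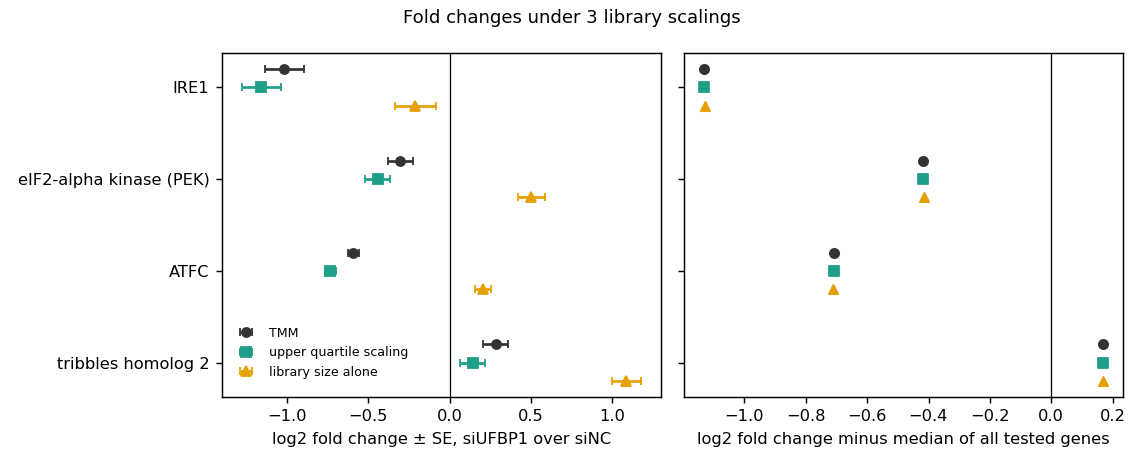
Log2 fold changes, siUFBP1 over siNC, of the 4 genes under TMM, upper quartile scaling and library size alone (left, bars are the SE), and the same values minus the median of all tested genes (right). On the left ATFC and eIF2-alpha kinase change sign with library size alone, reaching 0.20 and 0.50. On the right the 3 scalings coincide by construction, since each shifts all genes nearly alike.

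A ratio of 2 genes within a library does not depend on scaling, and 10 such ratios were compared, 6 among the 4 genes and 4 over BiP, the main ER chaperone. Each used the exact two-sided permutation test over libraries, for which 3 against 3 cannot go below 0.1, adjusted over the 10 pairs. Groups of 9 ratios did not overlap. Among ratios of all pairs of tested genes with a count in every library 68.0% did not overlap, and among ratios over BiP 93.3%.

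The largest difference among the 6 ratios of the 4 genes was that of tribbles homolog 2 to IRE1. Per gene length, from FPKM, which scale reads to gene length and library total, its ratio to IRE1 was 4.77, 5.14 and 4.97 in siUFBP1 libraries and 2.17, 1.69 and 2.32 in siNC libraries. Every siUFBP1 library had a higher ratio than the highest siNC library. From counts, the mean log2 ratio of tribbles homolog 2 to IRE1 was 1.28 higher in siUFBP1 than in siNC libraries (exact permutation p = 0.1, adjusted 0.111). The difference was 0.88 for tribbles homolog 2 over ATFC and 0.58 for tribbles homolog 2 over eIF2-alpha kinase, with the same p-values by exact permutation.

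The ratio of the sensors to each other also did not overlap between the groups. The same held for 68.0% of all pairs of tested genes with a count in every library. The FPKM ratio of eIF2-alpha kinase to IRE1 was 3.30, 3.83 and 3.38 in siUFBP1 libraries and 2.31, 1.88 and 2.27 in siNC libraries. The groups lay apart, and the log2 ratio from counts differed by 0.71 (exact permutation p = 0.1, adjusted 0.111). ATFC over IRE1 differed by 0.40 and eIF2-alpha kinase over ATFC by 0.30 (exact permutation p = 0.1 each, adjusted 0.111).

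BiP (KWMTBOMO08642) had a log2 fold change of -1.20 ± 0.03 (SE, adjusted p = 3.46e-17, edgeR) with TMM and of -0.40 with library size alone. The log2 ratio to BiP was higher in siUFBP1 libraries by 1.48 for tribbles homolog 2, by 0.91 for eIF2-alpha kinase and by 0.60 for ATFC (exact permutation p = 0.1 each, adjusted 0.111). The FPKM ratio of ATFC to BiP was 0.327, 0.322 and 0.311 in siUFBP1 libraries and 0.206, 0.219 and 0.207 in siNC libraries. For IRE1 over BiP the difference was 0.20 and the groups overlapped (exact permutation p = 0.3). That difference was 0.12 without siUFBP1 replicate 1 and 0.11 without siNC replicate 3. Without siNC replicate 2 it was 0.31 and the groups did not overlap.

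Levels per gene length placed ATFC far above the other 3. ATFC averaged 183 ± 3.09 FPKM in siUFBP1 libraries and 161 ± 7.90 FPKM in siNC libraries (SD, n = 3 each), which is above 97.4% of tested genes in siUFBP1 libraries and 97.9% in siNC libraries. Tribbles homolog 2 stood at 8.10 ± 0.329 FPKM in siUFBP1 libraries and 3.87 ± 0.0602 FPKM in siNC libraries. The eIF2-alpha kinase stood at 5.72 ± 0.174 FPKM in siUFBP1 libraries and 4.07 ± 0.222 FPKM in siNC libraries.

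IRE1 was lowest, at 1.64 ± 0.129 FPKM in siUFBP1 libraries and 1.91 ± 0.303 FPKM in siNC libraries (SD, n = 3 each). It lay above 29.4% of tested genes in siUFBP1 libraries and 51.1% in siNC libraries. The eIF2-alpha kinase lay above 55.8% in siUFBP1 and 66.1% in siNC libraries, and tribbles homolog 2 above 63.9% and 65.1%. Both of these had higher FPKM in siUFBP1 libraries, so a lower rank there need not mean a lower level. In siUFBP1 libraries the order was ATFC, tribbles homolog 2, eIF2-alpha kinase and IRE1, with no overlap between neighbours. In siNC libraries tribbles homolog 2 and eIF2-alpha kinase overlapped (exact permutation p = 0.3), while the other neighbours did not. FPKM are scaled to library size and not to composition, so differences between the groups on this scale follow those with library size alone.

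**Figure D4:**
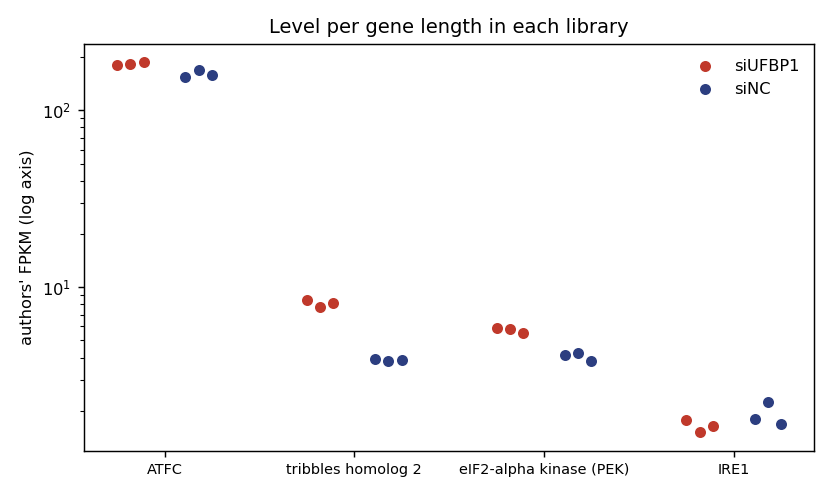
The authors' FPKM of each gene in each of the 3 siUFBP1 libraries (red) and 3 siNC libraries (blue), on a log axis. ATFC lies between 154 and 186 FPKM in all libraries, and IRE1 at no more than 2.25 FPKM. Tribbles homolog 2 lies above eIF2-alpha kinase in siUFBP1 libraries and overlaps it in siNC libraries.

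The other genes of the response were taken as 5 lists made by patterns on product names, 66 genes in all, of which 59 passed the filter. Of these, 15 were higher, 27 lower and 17 did not pass the edgeR test with TMM, with a median log2 fold change of -0.06 beside 0.11 for all tested genes. That is 25.4% higher and 45.8% lower, beside 40.0% and 28.4% of all tested genes. With library size alone all 15 stayed higher, 3 of the 27 stayed lower and 10 of the 27 were higher instead. Over all tested genes, all 4293 higher calls stayed higher. Of the 3043 lower calls, 452 stayed lower and 1451 were higher instead. With upper quartile scaling 11 of the 15 stayed higher and all 27 stayed lower, beside 3641 of 4293 and all 3043 over all tested genes. The 3 listed genes lower in every one of these scalings were DNAJC3, phosphoglycerate dehydrogenase and a cationic amino acid transporter.

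Downstream of IRE1, 4 of 10 genes were higher, 4 lower and 2 did not pass, with a median log2 fold change of 0.09 (scaled by library size alone, the 4 higher calls stayed and 0 of the 4 lower ones). XBP1 (KWMTBOMO05926), whose mRNA IRE1 splices, stood at 127, 131 and 126 TMM-normalized CPM in siUFBP1 libraries and 120, 113 and 120 in siNC libraries. Its groups lay close together without overlap, at a log2 fold change of 0.12 ± 0.04 (SE, adjusted p = 0.00572, edgeR), which turned to -0.02 with upper quartile scaling. Leaving out siNC replicate 2 gave 0.09 and lost the call (adjusted p = 0.0519, edgeR). RtcB (KWMTBOMO05699), the ligase that rejoins the cut XBP1 mRNA in animals, had a log2 fold change of 0.18 with TMM and 0.04, which did not pass, with upper quartile scaling. IRE1 and XBP1 thus had calls in opposite directions with TMM. Relative to the median of all tested genes, however, XBP1 was at 0.0071 and IRE1 at -1.13. For XBP1, 50.2% of tested genes had a lower value, so that it lay at the middle of all tested genes.

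The JNK arm, which IRE1 can engage through TRAF adaptors in mammals, was split. The transcription factor jun-D (KWMTBOMO11732) was higher at 0.58 ± 0.04 (SE), with 119, 114 and 121 TMM-normalized CPM in siUFBP1 libraries and 77.0, 80.5 and 79.7 in siNC libraries. The groups were clearly apart, and jun-D stayed higher under all 3 scalings, as did 3641 of the 4293 genes called higher with TMM. JNK itself (KWMTBOMO01063), the kinase that phosphorylates Jun, had a log2 fold change of -0.69 ± 0.10 (SE) with TMM and 0.12 with library size alone. TRAF3 (KWMTBOMO08220), an adaptor, was at -0.47 ± 0.12 (SE) with TMM and 0.33 with library size alone. Of the kinases that activate JNK, MKK4 (KWMTBOMO10326) was higher under all 3 scalings, at 0.59 ± 0.17 (SE) with TMM, and MKK7 (KWMTBOMO08670) was at -0.50 ± 0.19 (SE) with TMM and 0.30 with library size alone. The adaptor TRAF6 (KWMTBOMO07659) was lower with TMM at -0.26 ± 0.11 (SE) and higher with library size alone at 0.54. These 3 genes were named after their values were seen.

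Around eIF2-alpha kinase, 3 of 15 genes were higher, 8 lower and 4 did not pass, with a median of -0.45 (scaled by library size alone, the 3 higher calls stayed and 1 of the 8 lower ones). DNAJC3 (KWMTBOMO09361), the ER co-chaperone known in mammals as an inhibitor of PERK, fell most. It stood at 34.8, 31.8 and 32.5 TMM-normalized CPM in siUFBP1 libraries and 70.3, 71.1 and 75.6 in siNC libraries. Its log2 fold change was -1.13 ± 0.05 (SE, adjusted p = 1.65e-13, edgeR) with TMM and -0.33 with library size alone (adjusted p = 1.96e-05, edgeR), lower in both. Only 3.47% of tested genes had a lower value. Of the eIF2B subunits, epsilon (KWMTBOMO07866) was higher with TMM at 0.60, and alpha (KWMTBOMO03308) and delta (KWMTBOMO02471) lower at -0.67 and -0.59. With library size alone they stood at 1.40, 0.13 and 0.21. Of the catalytic PP1 subunits, beta (KWMTBOMO10951) was at 0.45 with TMM and 1.25 with library size alone, and alpha (KWMTBOMO09960) at -0.73 and 0.07. These genes were named after their values were seen. The 3 subunits of eIF2, the substrate of the kinase, were lower with TMM and none was lower with library size alone. Their log2 fold changes were -0.77 ± 0.06 with TMM and 0.03 with library size alone for alpha (KWMTBOMO12057), -0.45 ± 0.04 and 0.35 for beta (KWMTBOMO12580), and -0.67 ± 0.05 and 0.13 for gamma (KWMTBOMO13729; TMM values ± SE).

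Of the other eIF2 kinases, with TMM 1 was called higher and the other did not pass. The kinase annotated as eukaryotic translation initiation factor 2-alpha kinase 1 (KWMTBOMO01683), the heme-regulated type in mammals, stood at 47.7, 46.0 and 46.7 TMM-normalized CPM in siUFBP1 libraries and 23.4, 25.1 and 25.7 in siNC libraries. Its groups lay far apart, at a log2 fold change of 0.92 ± 0.05 (SE, adjusted p = 9.49e-12, edgeR), 0.78 with upper quartile scaling and 1.72 with library size alone. With TMM 75.9% of tested genes had a lower value. GCN2 (KWMTBOMO15012), which responds to amino acid shortage, was at 4.06, 3.29 and 3.92 TMM-normalized CPM in siUFBP1 libraries and 2.99, 2.83 and 3.31 in siNC libraries. The GCN2 groups overlapped, and its log2 fold change of 0.32, with a 95% interval of -0.08 to 0.71, did not pass (adjusted p = 0.0573, edgeR). It passed without siUFBP1 replicate 2 (0.39, adjusted p = 0.0322, edgeR) and without siNC replicate 3 (0.38, adjusted p = 0.0484, edgeR). PPP1R15A (KWMTBOMO14208), a Swiss-Prot match to the phosphatase subunit that reverses eIF2 phosphorylation, was at -0.05 with an interval of -0.16 to 0.05 (adjusted p = 0.225, edgeR), but at 0.75 with library size alone. Without siNC replicate 1 it passed, at -0.10 (adjusted p = 0.0213, edgeR).

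The third sensor of the animal response, ATF6 (KWMTBOMO08766), is a membrane-bound transcription factor released by proteolysis. It stood at 14.7, 15.3 and 16.2 TMM-normalized CPM in siUFBP1 libraries and 13.9, 13.4 and 12.6 in siNC libraries. Its groups did not overlap, at a log2 fold change of 0.22 ± 0.07 (SE, adjusted p = 0.0108, edgeR), but with upper quartile scaling it did not pass, at 0.08 (adjusted p = 0.331). The call was also lost without siUFBP1 replicate 3 (0.17, adjusted p = 0.0790, edgeR) and without siNC replicate 3 (0.18, adjusted p = 0.0574, edgeR).

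The proteases that release ATF6 were higher under all 3 scalings, as were 3641 of the 4293 genes called higher with TMM. Site-2 protease (KWMTBOMO13584) had 9.91 to 10.2 TMM-normalized CPM in siUFBP1 libraries and 4.19 to 4.75 in siNC libraries, a log2 fold change of 1.19 ± 0.10 (SE). Site-1 protease (KWMTBOMO00388) had a log2 fold change of 1.09 ± 0.22 (SE) on 19 to 188 counts per library. With TMM 79.2% of tested genes had a lower value than site-2 protease and 78.1% than site-1 protease. Both CREB3-like factors, which are released in the same way, were lower with TMM at -0.62 ± 0.04 (KWMTBOMO12524) and -0.74 ± 0.04 (KWMTBOMO12525), but stood at 0.18 and 0.06 with library size alone. In the whole list 3 of 9 genes were higher, 3 lower and 3 did not pass, with a median of 0.02 (scaled by library size alone, the 3 higher calls stayed and 0 of the 3 lower ones).

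The ATF4 list matched 22 genes by product names of ATF4 targets in mammals. Such names also take in relatives of those targets, so the counts are not those of known targets alone. Of the 22, 18 were tested, and 5 were higher, 7 lower and 6 did not pass, with a median of 0.04. Scaled by library size alone, the 5 higher calls stayed and 2 of the 7 lower ones. Phosphoglycerate dehydrogenase (KWMTBOMO00497), the first enzyme of serine synthesis, stood at 480, 471 and 481 TMM-normalized CPM in siUFBP1 libraries and 1103, 1065 and 1006 in siNC libraries. It was lower with TMM at -1.15 ± 0.03 (SE) and with library size alone at -0.35. The transporter LAT1 (KWMTBOMO02096), a carrier of large neutral amino acids, stood at 27.8, 27.9 and 29.4 TMM-normalized CPM in siUFBP1 libraries and 1.82, 2.26 and 1.14 in siNC libraries. No library came near the other group, and the log2 fold change was 4.0 ± 0.12 (SE, adjusted p = 1.07e-15, edgeR). With TMM 90.5% of tested genes had a lower value. A second model with that product name (KWMTBOMO15533), matched in Swiss-Prot to a Y+L amino acid transporter, went the other way with TMM. It was at -0.87 ± 0.17 (SE) with TMM and -0.07 with library size alone. LAT2 (KWMTBOMO02101) was at -0.77 ± 0.10 (SE) with TMM and 0.03 with library size alone.

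The rest of the ATF4 list was mixed in the same way. Phosphoserine phosphatase (KWMTBOMO04687), the last enzyme of serine synthesis, was at -0.72 ± 0.03 (SE) with TMM and 0.08 with library size alone. Phosphoserine aminotransferase (KWMTBOMO05178), of the same synthesis, did not pass with TMM at -0.01 (adjusted p = 0.771, edgeR). It was at 0.79 with library size alone. Cystathionine gamma-lyase (KWMTBOMO02880), which makes cysteine, was higher at 0.75 ± 0.03 (SE), and at 1.55 with library size alone. Asparagine synthetase (KWMTBOMO13744) was at -0.18 ± 0.03 (SE) with TMM and turned to 0.61 with library size alone. The cationic amino acid transporter lower in every scaling (KWMTBOMO04251) was at -1.83 ± 0.21 (SE) with TMM and -1.02 with library size alone. A methylenetetrahydrofolate dehydrogenase (KWMTBOMO12442) was higher at 1.80 ± 0.08 (SE) with TMM, and at 2.59 with library size alone. With TMM 84.0% of tested genes had a lower value. This enzyme, phosphoserine aminotransferase, asparagine synthetase, LAT2, KWMTBOMO15533 and KWMTBOMO04251 were named after their values were seen.

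Genes matched by product name to known partners of Tribbles, relatives included, numbered 10, of which 7 were tested. With TMM 5 were lower, none higher and 2 did not pass, with a median of -0.55. By library size alone none of the 5 was lower and 2 of the 5 were higher. The lower ones were 2 models of the ubiquitin ligase COP1, at -0.58 ± 0.09 (KWMTBOMO14694) and -0.44 ± 0.12 (KWMTBOMO14693), 2 of the kinase AKT, at -0.72 ± 0.11 (KWMTBOMO11078) and -0.55 ± 0.16 (KWMTBOMO11077), and the phosphatase cdc25 (KWMTBOMO06335) at -0.59 ± 0.13 (SE). In Drosophila, Tribbles promotes the breakdown of the cdc25 protein String and binds AKT. The paired models carry consecutive identifiers and the same product names, so each pair may be 1 gene or share reads.

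**Figure D5:**
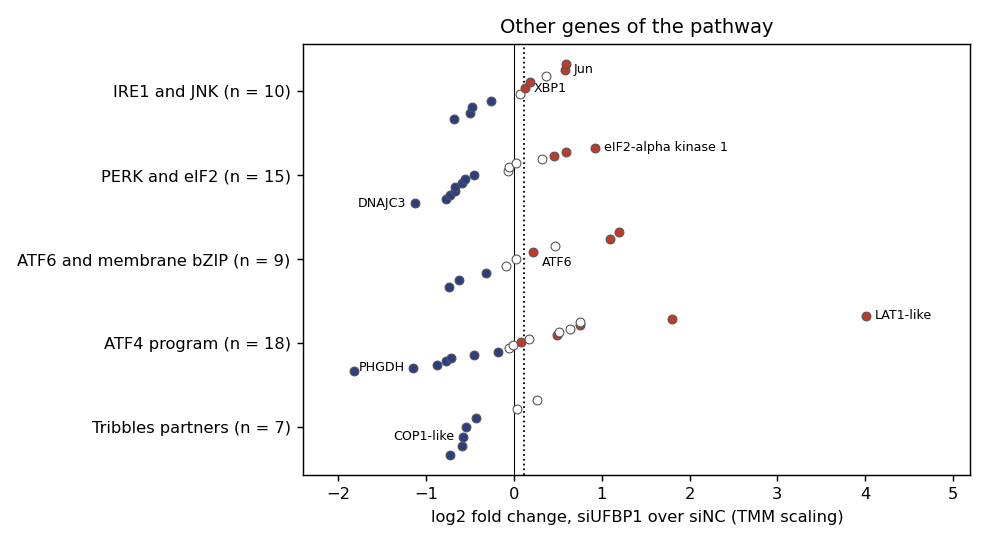
Log2 fold changes, siUFBP1 over siNC with TMM scaling, of the 59 tested genes of the 5 pathway lists. Filled points passed the edgeR test at an adjusted p of 0.05 (red higher, blue lower) and open points did not, and the dotted line is the median of all tested genes, 0.11. The Tribbles partners and the genes around eIF2-alpha kinase lie mostly below that line with TMM. With library size alone 3 of all 27 lower calls remained, beside 452 of 3043 over all tested genes.

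Genes most alike in pattern were found for each of the 4 genes among 4566 tested genes with a described product and a mean of at least 5 TMM-normalized CPM, by the Euclidean distance between centred log2(CPM + 1) values over the 6 libraries. For ATFC they were a ribosomal L1 domain protein (KWMTBOMO10299, distance 0.0395), a speckle poly(A) polymerase (KWMTBOMO11098, 0.0603) and ornithine decarboxylase (KWMTBOMO12122, 0.0649), beside a median distance of 0.708 over all candidates. For IRE1 they were nucleolar protein family A member 2 (KWMTBOMO15795, 0.114), insulin-degrading enzyme (KWMTBOMO14666, 0.158) and a hexokinase (KWMTBOMO16620, 0.160), beside a median of 1.02. IRE1 had the most distant neighbours of the 4 genes.

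For eIF2-alpha kinase the nearest were an aminopeptidase N-like gene (KWMTBOMO04904, 0.0425), glycerol kinase (KWMTBOMO00222, 0.0432) and C-terminal-binding protein (KWMTBOMO15781, 0.0705), beside a median of 0.534. For tribbles homolog 2 all 3 were annotated as mitochondrial: presequence protease (KWMTBOMO00686, 0.0462) and the ribosomal proteins L42 (KWMTBOMO02564, 0.0613) and L30 (KWMTBOMO08767, 0.0638), beside a median of 0.652. None of these 12 genes belongs to the pathway lists, and with 6 libraries in 2 groups a small distance mainly reflects a like difference between the groups.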

How the data were processed

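The 6 libraries, 3 siUFBP1 and 3 siNC, were analysed in groups taken from the sample titles. Per the labels' protocols, a SMARTER mRNA-Seq kit was used on total RNA, and reads went through fastp and HISAT2, per the submitters' processing notes. For versions, the read counter, strand use and genome build, the sources used here give nothing. The deposited table holds raw read counts per gene, per the file headers, and the authors' FPKM, scaled by gene length and library size. Its log2 fold changes, p-values adjusted by the authors and calls are printed only where named. Some rows of the table were not analysed here.

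Counts were tested with edgeR 4.0.16 (quasi-likelihood, TMM, filterByExpr, group as the only term, R 4.3.3), with Benjamini-Hochberg adjustment over 10729 genes and a threshold of 0.05. The filter left out 6148 genes holding 0.0479% of counts. The common biological coefficient of variation was 3.87%. Pairs of replicates differed beyond sampling noise (chi-square per degree of freedom 2.68 to 14.4). A count of 3 corresponds to 0.0564 to 0.117 CPM, counting error only. Standard errors are |log2 fold change| over the root of edgeR's F, and 95% intervals use 4 degrees of freedom. Such intervals are wider than the edgeR test implies. An interval can thus include 0 where the unadjusted p is under 0.05, as for GCN2 (unadjusted p = 0.0398, edgeR). The test was checked on simulated data.

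The 4 genes, the lists and the tests were chosen with earlier results of these data known. Pathway and marker lists are patterns on product names, with matches that are plainly other genes removed. Named are the 4 genes, BiP, UFBP1, the up to 4 called genes per list lowest in adjusted p, and XBP1, ATF6, GCN2, the CREB3-like factors, DNAJC3 and PPP1R15A whatever their values. Other genes named were chosen after their values were seen (eIF2 beta, KWMTBOMO12580, among them). Replicate numbers are shared by the groups but do not pair libraries. Alternatives were other scalings and filters, DESeq2 1.42.0, limma 3.58.1 (voom, and limma-trend on FPKM), the replicate block and leaving out each library; 8 single genes of the lists were added after seeing the data. No sequence is printed.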

Additional observations from a re-analysis of the deposited data

How the results depend on the processing

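The log2 fold changes of the 4 genes kept their direction and call with DESeq2 size factors, TMM after removal of storage protein, 30 kDa lipoprotein, silk gland and testis genes, both other filters, DESeq2's Wald test, limma-voom and each library left out in turn. Over the 6 omissions ATFC ran from -0.63 to -0.57, IRE1 from -1.09 to -0.89, eIF2-alpha kinase from -0.34 to -0.24 and tribbles homolog 2 from 0.24 to 0.32. With library size alone ATFC was 0.20, eIF2-alpha kinase 0.50 and IRE1 -0.21, with 3 of the 4 genes higher and 0 lower, 8604 and 452 of all genes, and 42 and 3 of the lists. The TMM calls were 4293 higher and 3043 lower of all genes. In limma-trend fits to FPKM, with a pseudocount of 1 and then of 0.1, ATFC was 0.19 in both, eIF2-alpha kinase 0.41 and 0.48, IRE1 -0.14 and -0.20 (adjusted p = 0.168 and 0.177), with 3 genes higher and 0 lower, 6625 and 6601 of all genes higher and 406 lower, and 34 and 2 of the lists. With upper quartile scaling tribbles homolog 2 was 0.14, XBP1 -0.020 and the number of the 4 genes called higher 0. With library size alone and then with both FPKM fits, the CREB3-like factor KWMTBOMO12524 was 0.18, 0.15 and 0.15, KWMTBOMO12525 was 0.058, 0.039 and 0.040, and PPP1R15A 0.75, 0.71 and 0.72. By construction, library size alone and the FPKM fits leave out the composition factors of TMM, and the FPKM fits cover 7969 genes, 49 of them in the lists. Upper quartile scaling moved the median of all tested genes by -0.14, and by construction it shifts all genes nearly alike. Relative to that median, tribbles homolog 2 stood at 0.17 with upper quartile scaling and with TMM. Why these scalings differ was not tested.

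Same-numbered libraries did not deviate together (correlations of 0.0067, -0.0083 and 0.018). With the replicate number as a block, ATFC was -0.59, IRE1 -0.99, eIF2-alpha kinase -0.29 and tribbles homolog 2 0.28, all called, with 4019 genes higher and 2823 lower. IRE1 rests on 127 to 286 counts per library, which limits its precision, and GCN2 on 64 to 288.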
